A study of Mus musculus with 2 samples.

Results

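Broad regions of open chromatin were examined in mouse prostate tumor cells of the strain C57BL/6. They were the ATAC-seq peaks of at least 800 bp in cells given tamoxifen for 6 months (M6, the late stage), on chromosomes 1 to 19, X and Y. Peaks in a pair of stretches of chromosome 4 with a high local background (81815783 to 83165450 and 122699690 to 123637714) were left out. The rule gave 746 broad peaks among 22570 M6 peaks, of which 22384 lay outside both stretches. The other library came from the same kind of cells after 2 weeks of tamoxifen (W2, the early stage of progression to neuroendocrine prostate cancer) and held 5735 peaks. Both groups received tamoxifen and no untreated cells were analysed here. The labels name no transgene, allele, age or number of animals behind each library. Each stage was 1 library, so no spread between animals was measured. No difference between stages or between classes of peaks was tested. Intervals given with shares are exact binomial 95% intervals and cover counting error only.

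ATAC-seq cuts DNA where the transposase can reach it, and a peak is a stretch where cut fragments pile up above the local background. Many promoters carry a region free of nucleosomes just before the transcription start, with positioned nucleosomes on either side, and those that lie in CpG islands are often open in many cell types. When 2 genes are transcribed away from each other from neighbouring starts, 1 open region can serve both promoters. Broad open regions are also known from clustered enhancers and from repeated DNA that maps to few places of the genome build. Neuroendocrine prostate cancer is a form of the disease in which tumor cells lose androgen signaling and take on neuronal and secretory features.

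The promoters of 6 genes show what kind of sequence lay inside broad peaks. They are the 250 bases before the annotated start, from RefSeq with assembly GRCm38.p6, written 5′ to 3′ on the strand of the gene. Sp4 and Clcn3 have the widest broad peaks with several W2 peaks at a single start, Hdlbp and Septin2 share the widest peak with starts on both strands, Syt1 has the widest broad peak at a start with no W2 peak, and Dennd6b is at a start among the strongest without one. Capitals mark matches, on either strand, to any of 11 short motifs. The motifs searched were those of SP and KLF factors (GGGCGG), NFY (CCAAT), ETS factors (CCGGAAG), NRF1 (TGCGCA), CREB and ATF factors (TGACGTCA), the E-boxes of MYC and MAX (CACGTG) and of proneural factors (CAGCTG), the box bound by TBP (TATAAA), AP-1 (TGANTCA), YY1 (AAGATGG) and E2F (TTTCCCGC). No motif contains another, though matches may share bases at their edges. A match describes the letters and does not show that a factor was bound.
Sp4 (chr12:118301441-118301690, minus strand): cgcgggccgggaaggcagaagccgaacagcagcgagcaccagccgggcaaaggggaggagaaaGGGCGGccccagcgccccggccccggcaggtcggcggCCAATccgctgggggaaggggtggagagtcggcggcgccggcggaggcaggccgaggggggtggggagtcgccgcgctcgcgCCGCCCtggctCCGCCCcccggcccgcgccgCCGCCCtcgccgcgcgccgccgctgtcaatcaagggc
Clcn3 (chr8:60983312-60983561, minus strand): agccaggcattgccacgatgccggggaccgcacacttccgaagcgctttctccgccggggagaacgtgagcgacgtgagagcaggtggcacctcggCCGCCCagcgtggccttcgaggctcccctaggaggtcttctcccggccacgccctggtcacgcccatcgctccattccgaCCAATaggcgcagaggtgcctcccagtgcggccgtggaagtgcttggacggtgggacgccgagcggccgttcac
Hdlbp (chr1:93478378-93478627, minus strand): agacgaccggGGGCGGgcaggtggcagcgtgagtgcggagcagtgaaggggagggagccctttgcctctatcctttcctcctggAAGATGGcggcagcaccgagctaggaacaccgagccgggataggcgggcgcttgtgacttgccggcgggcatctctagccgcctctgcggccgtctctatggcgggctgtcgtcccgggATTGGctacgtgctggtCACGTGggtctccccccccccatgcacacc
Septin2 (chr1:93478743-93478992, plus strand): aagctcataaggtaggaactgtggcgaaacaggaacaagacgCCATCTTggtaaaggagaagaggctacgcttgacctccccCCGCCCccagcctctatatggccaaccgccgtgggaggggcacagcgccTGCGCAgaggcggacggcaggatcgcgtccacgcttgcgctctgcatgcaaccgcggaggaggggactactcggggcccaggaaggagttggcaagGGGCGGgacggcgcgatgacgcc
Syt1 (chr10:109010976-109011225, minus strand): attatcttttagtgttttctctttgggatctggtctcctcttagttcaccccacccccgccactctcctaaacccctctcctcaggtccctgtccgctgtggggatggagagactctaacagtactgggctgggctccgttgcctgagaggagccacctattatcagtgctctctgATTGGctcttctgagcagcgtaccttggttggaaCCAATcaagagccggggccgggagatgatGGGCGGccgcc
Dennd6b (chr15:89196475-89196724, minus strand): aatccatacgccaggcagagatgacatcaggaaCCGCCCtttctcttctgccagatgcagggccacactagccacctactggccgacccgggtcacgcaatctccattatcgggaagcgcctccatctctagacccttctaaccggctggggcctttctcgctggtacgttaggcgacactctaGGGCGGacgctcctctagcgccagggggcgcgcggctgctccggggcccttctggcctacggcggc

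The Sp4 promoter was 80.0% G and C, with 4 matches to GGGCGG and 1 to CCAAT. Those of Hdlbp and Septin2 were 67.6% and 64.8% G and C, and both held AAGATGG and GGGCGG. The Syt1 promoter was the least rich of the 6 in G and C, at 56.4%, and held 2 matches to CCAAT and 1 to GGGCGG. Dennd6b had 2 matches to GGGCGG and none to the other 10 motifs.

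The 746 broad peaks made up 3.33% of the 22384 M6 peaks outside the stretches and covered 699.5 kb, or 8.10% of the length of all of them. Width ran from 800 to 3902 bp with a median of 894.5 bp and an interquartile range of 842 to 992 bp, so most lay close to the minimum, and 177 reached 1000 bp. The peaks just inside the minimum were at Aspscr1 and Phf20 (800 bp each), and those just outside it were at C9orf72 and near Srrm4 (799 bp each). The widest stood apart from the rest at chromosome 17, 39843164 to 39847065. It overlapped Rn18s-rs5, a sequence related to the 18S ribosomal RNA, and is treated with the raised backgrounds at the end. The next was at the start of Sp4, a zinc-finger transcription factor of the SP family (chromosome 12, 118300875 to 118302445, 1571 bp). Then came Impact, a regulator of translation, with a peak of 1531 bp inside the gene, and the shared promoter of Hdlbp, an RNA-binding protein, and Septin2, a filament-forming GTPase (chromosome 1, 93478037 to 93479520, 1484 bp). The rest of the 10 widest were at Clcn4, a chloride and proton exchanger (1416 bp, 34 tags at the summit), between Lnx2 and Polr1d (1400 bp, 34 tags), at Abhd11, a mitochondrial hydrolase (1392 bp, 38 tags), at Syt1 (1385 bp, 45 tags), and outside genes near Zfp958 (1374 bp, 55 tags) and near Klf13 (1359 bp, 42 tags). Of these 6, those at Syt1 and near Klf13 had no W2 peak. None of the broad peaks held a whole protein-coding gene.

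Height was recovered for each peak as the pileup, the number of tags over its summit. It had a median of 36 tags in broad peaks, against 20 tags in the 21638 narrower M6 peaks. Local background had a median of 4.93 tags in broad peaks, against 3.46 tags in narrower ones, and the median fold of pileup over background was 6.11 in broad peaks and 4.68 in narrower ones. Width and height come from the same tags, so these values describe the broad peaks and support nothing else. The 746 narrower peaks with the highest −log10 q, called the strongest narrower peaks below, served as a further comparison. Their median pileup of 48 tags and fold of 8.49 follow from that choice. They were 258 to 797 bp wide with a median of 560.5 bp. Summits of broad peaks sat off centre, at a median of 37.5% of the way from the middle to the edge, against 35.6% in peaks of 500 to 799 bp, 16.9% in the strongest narrower peaks and 22.7% in narrower peaks as a whole.

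Broad peaks lay mostly at gene ends. Of the 746, 557 (74.7%, 71.4 to 77.8%) were within 1 kb of either end of an annotated protein-coding gene, which held for 37.0% of all 22384 M6 peaks. A further 128 (17.2%) were inside a gene away from its ends, and 61 (8.18%, 6.31 to 10.4%) were outside genes. Among narrower peaks, 35.7% were at a gene end, 35.3% inside a gene and 29.0% outside genes. The strongest narrower peaks were close to the broad ones, with 71.6% (68.2 to 74.8%) at a gene end, though more of them, 14.2% (11.8 to 16.9%), were outside genes. The share at a gene end was higher in each wider class of M6 peaks, from 26.1% at 200 to 299 bp to 78.5% at 1000 bp and above. A wide interval reaches a gene end more easily than a narrow one, and the share was 71.4% of broad peaks, 71.0% of the strongest narrower peaks and 34.7% of narrower peaks when the summit was used in place of the edge.

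**Figure D1:**
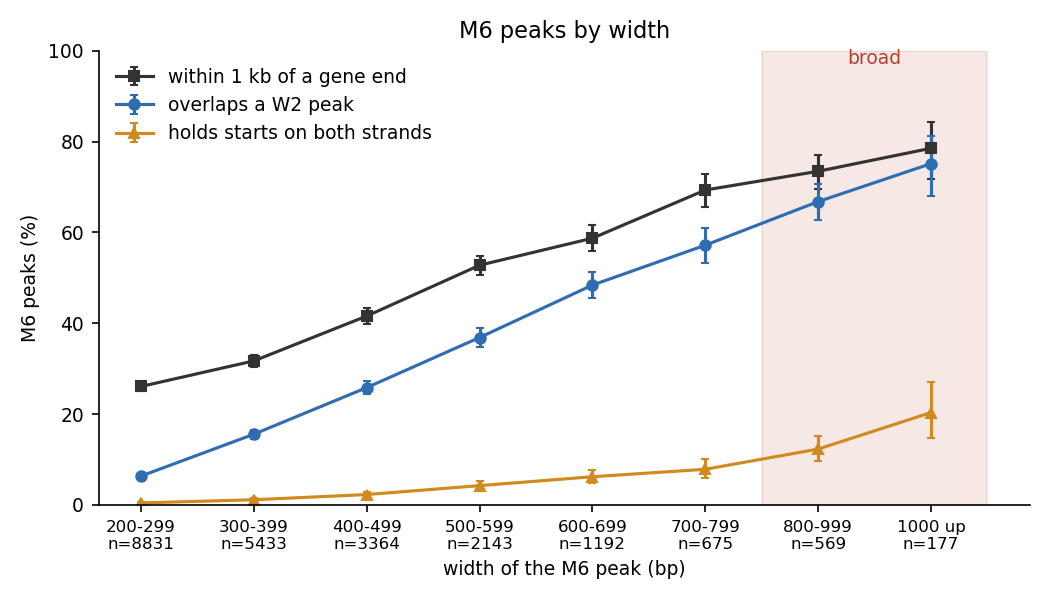
Share of M6 peaks (y axis, %) by width of the peak (x axis, bp, with the number of peaks) that lay within 1 kb of a gene end, overlapped a W2 peak, or held annotated starts on both strands; bars are exact binomial 95% intervals and the shaded classes are the broad peaks. All 3 shares are higher in each wider class, and in peaks of 1000 bp up they are 78.5%, 75.1% and 20.3%.

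The broad peaks touched the ends of 712 protein-coding genes, 3.25% of the 21887 in the annotation and 8.21% of the 8669 with any M6 peak at an end. Of these 712 genes, 550 (77.2%) also had a W2 peak within 1 kb of an end, against 4033 (18.4%) of all 21887. A single gene was at 401 of the 557 gene-end peaks, 2 genes at 155 and 3 genes at 1. That last peak, on chromosome 5 from 137293953 to 137294982, was within 1 kb of ends of Ache, which encodes acetylcholinesterase, Srrt and Ufsp1. It had 30 tags in M6 against 21 tags in W2. In all, 20.9% of broad peaks (18.05 to 24.0%) were within 1 kb of ends of 2 or more genes, against 14.2% (11.8 to 16.9%) of the strongest narrower and 5.92% of narrower peaks. Not all of the others were far from promoters: among the 128 broad peaks inside genes, 53 held an annotated start of a protein-coding gene, such as a start of Sp2, a further SP-family factor (chromosome 11, 96977292 to 96978243), and of Cetn3, a centrin of the centrosome. Of the 189 broad peaks away from protein-coding gene ends, 25 were at an end of another kind of gene, including 19 at long noncoding RNAs, 4 at pseudogenes and 1 at a tRNA.

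Many broad peaks spanned promoters that face away from each other. An annotated start lay inside 500 of the 746 (67.0%, 63.5 to 70.4%; 25.6% of all M6 peaks). Starts on both strands lay inside 106 (14.2%, 11.8 to 16.9%; 2.24% of all M6 peaks). The strongest narrower peaks had starts on both strands in 7.64% (5.84 to 9.79%), and narrower peaks in 1.83%. In 94 of the 106 the starts were head to head. This was also so in 54 of 57 strongest narrower peaks with starts on both strands, 199 of 218 peaks of 500 to 799 bp and 367 of 396 narrower peaks. The median distance between head-to-head starts was 263.5 bp in broad peaks and 213 bp in the strongest narrower peaks. It was 146 bp in peaks of 500 to 799 bp and 118 bp in all narrower peaks. The share with starts on both strands depends on the length of the interval. Within a fixed 250 bp of the summit it was 6.70% (5.02 to 8.74%) in broad peaks, 6.17% (4.55 to 8.14%) in the strongest narrower peaks and 1.82% in narrower ones. The widest such pairs were Hdlbp with Septin2, Lnx2 (a ubiquitin ligase) with Polr1d (a subunit of RNA polymerases I and III), Nudt6 with Spata5 (an AAA-type ATPase), Ddias with Prcp (a carboxypeptidase), and Adk (adenosine kinase) with Ap3m1 (a subunit of the AP-3 adaptor). The first of them had 44 tags in M6 and 24 and 21 tags at its W2 peaks, the second 34 tags in M6 and 28 tags in W2, and the third 48 tags in M6 and 17 tags in W2. All 3 were thus higher in M6, by amounts that differed between them.

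Around a start on 1 strand, broad peaks reached about as far into the gene as before it, as did M6 peaks of 500 to 799 bp. The 394 broad peaks of this kind extended a median of 469 bp before the start and 457.5 bp into the gene. The 1650 peaks of 500 to 799 bp extended 320 bp before and 295.5 bp into it, and the 399 strongest narrower ones 361 bp before and 177 bp into it. The summit lay before the start in 71.3% of broad peaks (66.6 to 75.7%), a share close to the 71.1% of all narrower peaks and the 73.1% of peaks of 500 to 799 bp, and in 92.98% (90.0 to 95.3%) of the strongest narrower peaks. Its median position relative to the start was −73 bp in broad peaks and −96 bp in the strongest narrower ones. In the 297 broad peaks with a W2 peak, M6 covered a median of 487 bp before the start and 435 bp into the gene, and W2 covered 291 bp and 106 bp. At 300 bp into the gene, 69.4% of these starts were under the M6 peak and 14.8% under a W2 peak. At 300 bp before the start the shares were 77.8% in M6 and 45.8% in W2. So M6 and W2 intervals differed more on the side of the gene body than before the start, which was not particular to broad peaks. In the 1028 peaks of 500 to 799 bp with a W2 peak, M6 covered 350 bp before the start and 270 bp into the gene, and W2 246 bp and 96 bp. In the 382 strongest narrower peaks with a W2 peak, M6 covered 365.5 bp and 174 bp, and W2 298 bp and 86.5 bp. The 97 broad peaks at a start with no W2 peak leaned the other way from the strongest narrower peaks, with a median of 346 bp before the start and 581 bp into the gene. The 622 peaks of 500 to 799 bp with no W2 peak leaned the same way as these, with 246.5 bp before and 337 bp into it. A fixed width minimum makes any peak with a short side long on the other, so the widths of both sides are a description.

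**Figure D2:**
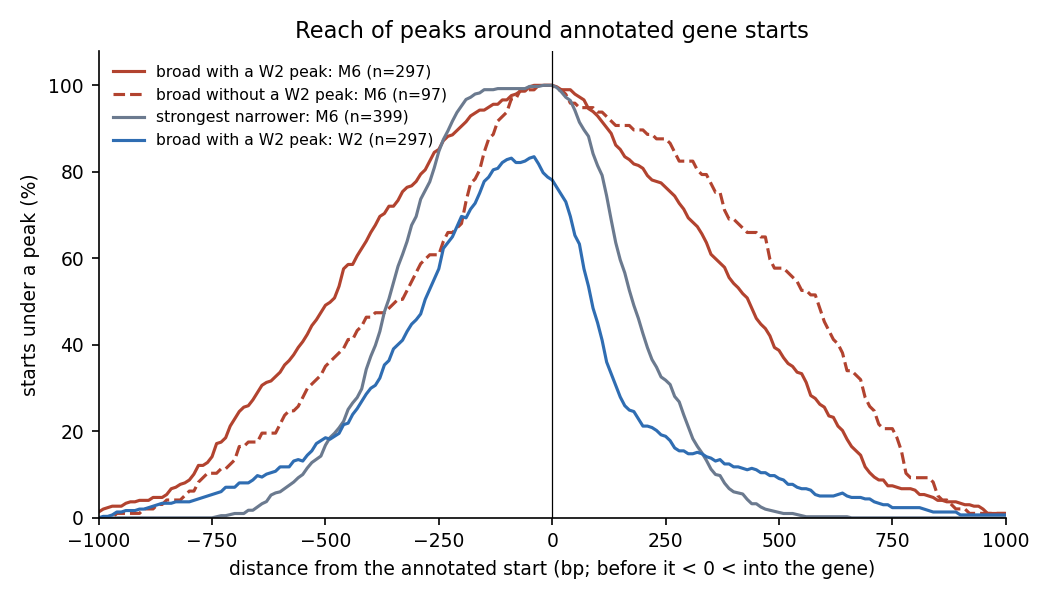
Share of annotated starts (y axis, %) under a peak at each distance from the start (x axis, bp, with negative values before the start), for starts on 1 strand inside an M6 peak; lines show M6 intervals of broad peaks with (n = 297) and without (n = 97) a W2 peak and of the strongest narrower peaks (n = 399), and the W2 intervals at the same 297 starts. The M6 share is 100% at the start by construction; at 300 bp into the gene it is 69.4% and 82.5% in broad peaks and 21.1% in the strongest narrower ones, and the W2 share is 14.8%.

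Most broad M6 peaks had a W2 peak inside them. At least 1 bp of a W2 peak lay in 513 of the 746 (68.8%, 65.3 to 72.1%), against 20.3% of all M6 peaks. Among these, 456 held 1 W2 peak, 56 held 2, and 1 held 3. The other 233 held none. By location, a W2 peak lay in 425 of 557 broad peaks at gene ends (76.3%, 72.5 to 79.8%), in 66 of 128 inside genes (51.6%, 42.6 to 60.5%) and in 22 of 61 outside genes (36.1%, 24.2 to 49.4%). The strongest narrower peaks had a W2 peak more often at gene ends, in 95.7% (93.6 to 97.3%), while their shares inside genes (54.7%) and outside genes (39.6%) were within the intervals of the broad peaks. Over all locations the difference, broad minus strongest narrower, was −13.1 percentage points. Broad peaks were 25.1 percentage points above M6 peaks of 500 to 799 bp, of which 43.7% (42.2 to 45.3%) overlapped a W2 peak.

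**Figure D3:**
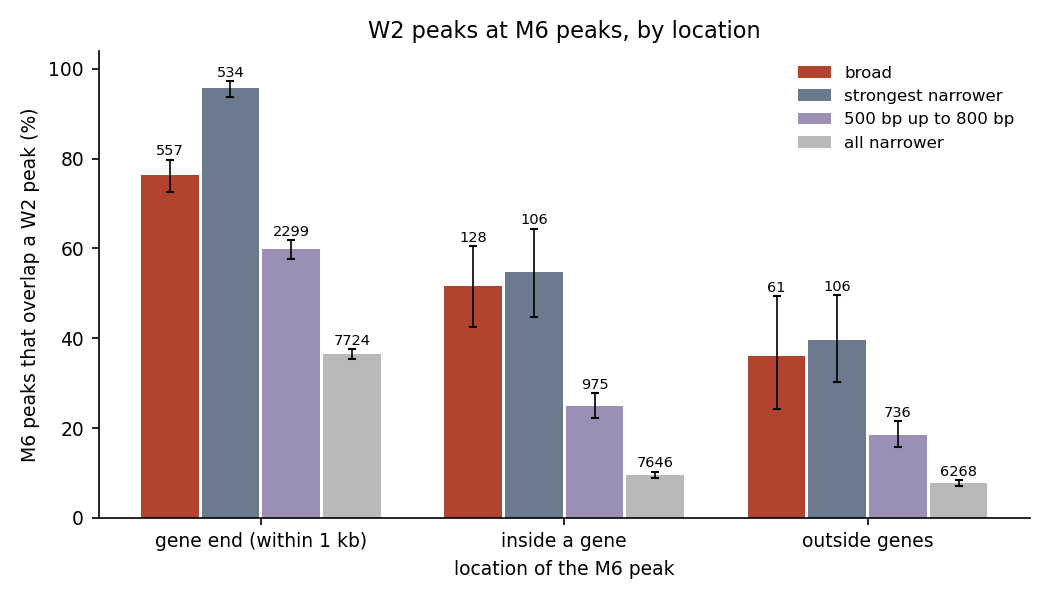
Share of M6 peaks that overlapped a W2 peak (y axis, %) by location of the M6 peak, for broad peaks, the strongest narrower peaks, peaks of 500 to 799 bp and all narrower peaks; bars start at 0, whiskers are exact binomial 95% intervals and numbers are peaks. Broad peaks are at 76.3%, 51.6% and 36.1% from gene ends to outside genes, below the strongest narrower peaks and above the other classes at each location. Away from gene ends, the shares of the strongest narrower peaks are within the intervals of the broad ones.

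The W2 peaks inside broad M6 peaks were mostly narrower than the M6 peak, which the choice of members by M6 width favours, and wider than other W2 peaks. The widest W2 peak in each had a median of 406 bp, against 901 bp for the M6 peak around it, and W2 peaks covered a median of 47.4% of the M6 length. In the strongest narrower peaks the W2 partner was nearly as wide, at 395 bp, and covered 72.1% of the M6 length. Within W2, the 571 peaks that lay in broad M6 peaks had a median width of 376 bp and a pileup of 23 tags, and the 4037 in narrower M6 peaks 294 bp and 21 tags. Only 21 W2 peaks (0.367% of them) reached 800 bp, and 20 of the 21 overlapped a broad M6 peak. The other, at Rbm15, a regulator of RNA methylation, was 822 bp wide in W2 and lay in an M6 peak of 753 bp. When the W2 list was read at the same share as the broad M6 peaks, its 191 widest peaks began at 603 bp. Of these 191, 92 (48.2%) overlapped a broad M6 peak and 187 overlapped some M6 peak. Over all 5735 W2 peaks, 571 (9.97%) overlapped a broad M6 peak, and a further 4037 a narrower one outside the stretches. The lowest pileup in the lists was 10 tags in M6 and 12 tags in W2, so a stretch with no W2 peak was not shown to be closed. Read depth is unknown, and the lowest background, which may follow it, was 2.65 tags in M6 and 2.96 tags in W2. The parts of depth, of the caller's minimum and of the choice by M6 width in the difference of widths were not tested.

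**Figure D4:**
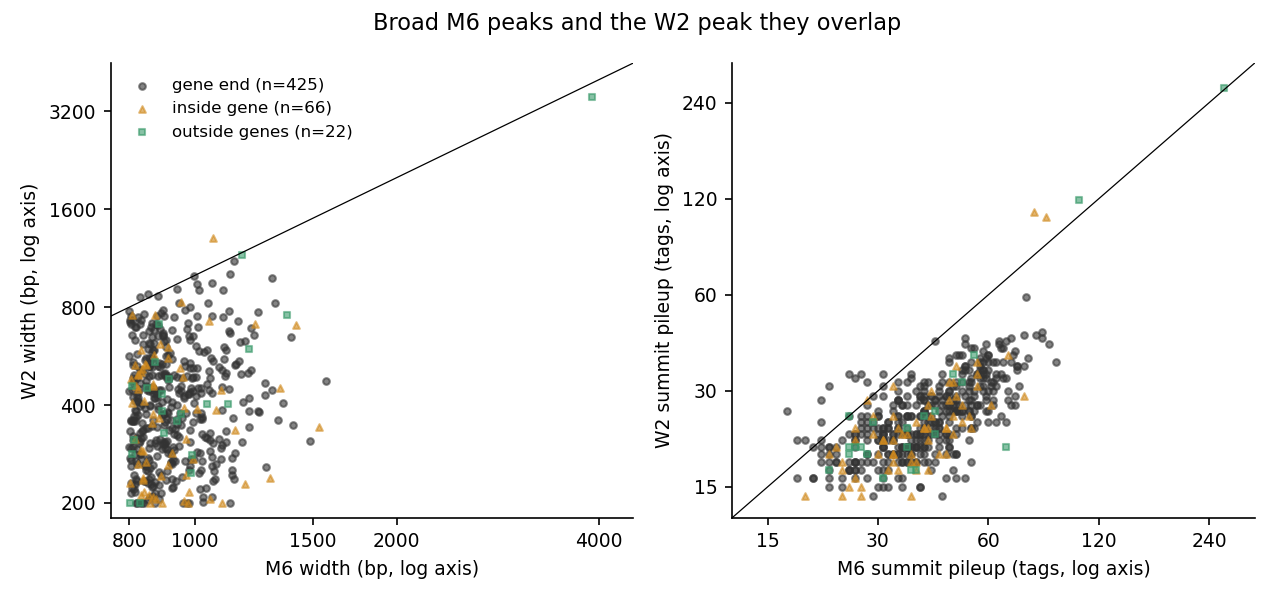
The 513 broad M6 peaks with a W2 peak: left, width of the widest W2 peak (y axis, bp) against width of the M6 peak (x axis, bp), and right, pileup of the highest W2 peak (y axis, tags) against that of the M6 peak (x axis, tags), all on log axes with a line of equal values; colours and shapes give the location. Points lie below the line in nearly all cases, with medians of 901 bp in M6 against 406 bp in W2 and of 40 tags in M6 against 24 tags in W2, and the 4 points with W2 pileups above 100 tags have a raised background.

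Pileups were higher in M6 too, which the choice of members by M6 width favours, and read depth is unknown. The 513 broad peaks with a W2 peak had a median of 40 tags in M6 and 24 tags in W2, with a median ratio of 1.66 and an interquartile range of 1.41 to 1.93. M6 exceeded W2 in 490 of the 513 (95.5%, 93.3 to 97.1%), against 85.4% of all 4542 M6 peaks with a W2 partner. Among the strongest narrower peaks, chosen by their M6 −log10 q, it did so in 98.2% (96.8 to 99.1%), with a median ratio of 1.83. The largest ratio, 3.35, was outside genes near Ttll10 (67 tags in M6, 20 tags in W2). The next were at Pou2f1, the octamer-binding factor Oct-1 (52 tags in M6, 16 tags in W2), and between Atp6v1d, a subunit of the vacuolar proton pump, and Eif2s1, the alpha subunit of initiation factor eIF2 (45 tags in M6, 14 tags in W2). Mplkip with Sugct followed with a ratio of 3.06, then Stxbp5l, a regulator of vesicle release, with 3.00 and Fem1c, a substrate receptor of a ubiquitin ligase, with 2.88. At the other end, Cmtr1, which methylates the mRNA cap, had 17 tags in M6 and 26 tags in W2, a ratio of 0.654, with an M6 peak of 854 bp and a W2 peak of 271 bp. Dusp23, a phosphatase, had 22 tags in M6 and 31 tags in W2, and N4bp2l2 had 21 tags in M6 and 28 tags in W2. A promoter shared by Mrpl47, of the mitochondrial ribosome, and Ndufb5, of respiratory complex I, had 26 tags in M6 and 33 tags in W2. In Sfi1, 1 of the broad peaks had 80 tags in M6 and 109 tags in W2, and there the W2 peak was the wider, at 1065 bp in M6 and 1302 bp in W2.

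Some broad M6 peaks spanned W2 peaks that were called apart. At 57 broad peaks, 2 or more W2 peaks lay inside (7.64%, 5.84 to 9.79%), against 0.348% of all M6 peaks and 0.938% (0.378 to 1.92%) of the strongest narrower ones. A longer interval has more room for separate peaks, and the effect of length on this share was not tested. The gap between W2 peaks ran from 119 to 650 bp with a median of 227 bp. The M6 summit lay in one of the W2 peaks in 55 of the 57, in the gap at Sertad2 and outside both at Lnpep. It was counted in the higher of the W2 peaks in 42. These include 1 of the 3 broad peaks whose W2 pileups were equal. An annotated start lay in 49 of the 57, in the gap in 8 and only in W2 peaks in 31. Setd5, a SET-domain protein linked to chromatin, had the 3 W2 peaks, with 21, 22 and 15 tags inside an M6 peak of 1353 bp and 41 tags (chromosome 6, 113076023 to 113077375). The Sp4 peak had 57 tags in M6 and 28 and 31 tags at W2 peaks of 227 and 474 bp, and its M6 summit lay before the bases shown, at −630 bp from the annotated start. At Clcn3, a chloride and proton exchanger of endosomes, M6 had 47 tags and the W2 peaks 24 and 19 tags, with the summit at −31 bp from the start. Idh1, the cytosolic isocitrate dehydrogenase, had the longest gap, 650 bp, with 35 tags in M6 and 22 and 21 tags in W2. The M6 summit was above every W2 peak inside it at each of these 4 genes. At 4931408C20Rik it was not, with 25 tags in M6 and 34 and 21 tags in W2.

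The 233 broad peaks with no W2 peak were lower than those with one, and fewer of them were at gene ends. Their median pileup was 27 tags, their median width 886 bp and their background 4.30 tags. None of the 233 had a W2 peak within 1 kb, and the nearest was at a median of 112 kb, so W2 peaks did not lie just outside their edges. They comprised 132 peaks at gene ends, 62 inside genes and 39 outside genes, against 425, 66 and 22 among the 513 with a W2 peak. Those with the highest −log10 q were mostly away from gene ends. They were near Mgst1, a microsomal glutathione transferase (51 tags, chromosome 6, 138130319 to 138131121), near Traf3ip2, an adaptor of interleukin-17 receptors (61 tags, chromosome 10, 39659525 to 39660542), inside Oxr1, an oxidative stress resistance gene (54 tags), and inside Cntnap5a, a contactin-associated adhesion protein (49 tags). Then came the end of Zfp438 (47 tags), a start inside Dennd6b (48 tags) and peaks near Tmem212 (50 tags) and near Ctso (45 tags). The last of these was 326 kb from the nearest gene end. These 8 were picked by their −log10 q, so their high pileups follow from that choice. The upper quartile over the 233 was 33 tags.

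The W2 overlap of broad peaks was also set beside that of narrower peaks of the same height. Among gene-end peaks with 16 to 24 tags in M6, 35% of broad peaks (24.7 to 46.5%) and 16.6% of narrower peaks (15.4 to 17.9%) overlapped a W2 peak. With 25 to 34 tags the shares were 63.6% (55.7 to 71.0%) and 48.6% (46.5 to 50.8%), and with 35 to 44 tags 88.3% and 79.9%. From 45 tags up they were close, at 96.0% of broad and 95.2% of narrower peaks with 45 to 59 tags, and at all 52 broad and 98.6% of narrower peaks with 60 to 92 tags. Starts on both strands stayed between 12.2% and 16.5% in broad peaks over the 5 pileup classes, and between 1.22% and 8.21% in narrower peaks. These classes match height and not width. A longer interval reaches more starts and more W2 peaks, and the effect of length at a given pileup was not tested.

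Promoters in broad peaks were rich in G, C and CpG, and fewer of them held the NFY motif than did those of the strongest narrower peaks. Over the 608 starts inside broad peaks, the 250 bases before the start were a median of 63.6% G and C, against 61.6% in the strongest narrower peaks, 61.2% in narrower peaks and 55.6% at all 21263 starts. The ratio of observed to expected CpG was 0.798 in broad peaks, against 0.763, 0.766 and 0.530 in the same 3 sets. CCAAT was present in 45.7% of starts in broad peaks (41.7 to 49.8%) and in 75.2% (71.2 to 78.9%) of those in the strongest narrower peaks, against 44.5% in narrower peaks and 35.4% of all starts. Within broad peaks, CCAAT was present at 51.1% (46.6 to 55.7%) of starts in peaks with a W2 peak and 25.2% (17.9 to 33.7%) of those in peaks without. Narrower peaks were split in the same direction, with 56.2% (54.2 to 58.1%) and 34.9% (33.3 to 36.7%). The share also differed by pileup: CCAAT was at 22.5% of starts in broad peaks with 16 to 24 tags and at 81.1% with 60 to 92 tags, and in narrower peaks of the same pileups at 34.0% and 91.3%. In each of the 5 pileup classes the share was lower in broad than in narrower peaks, with intervals that did not overlap at 25 to 34 tags (26.1 to 40.4% in broad, 42.6 to 47.3% in narrower) and at 35 to 44 tags (41.8 to 58.2% in broad, 59.4 to 66.3% in narrower). GGGCGG did not differ in this way, with 76.2% in broad peaks and 75.8% in the strongest narrower peaks, against 65.6% in narrower peaks and 42.6% of all starts. CCGGAAG was at 17.8%, 15.3%, 16.9% and 8.98% in the same order, and TATAAA at 4.11%, 3.10%, 4.98% and 11.6%. Starts of 1 peak share its sequence, so these counts are of starts, not of independent regions.

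**Figure D5:**
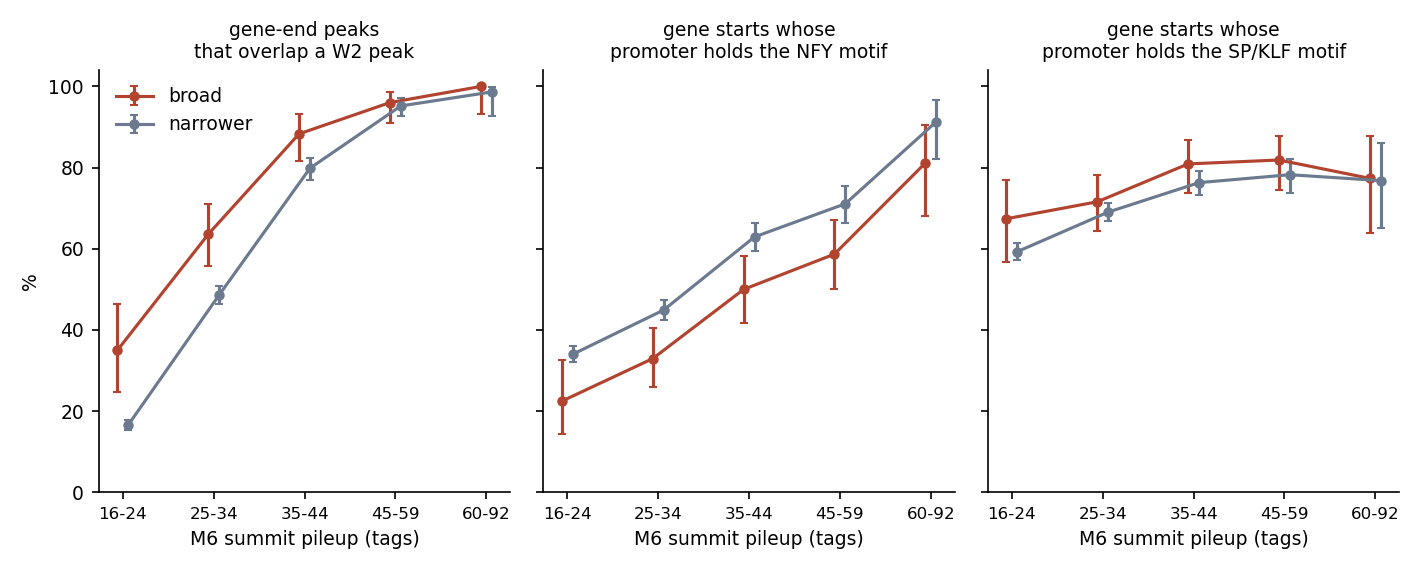
M6 peaks in 5 classes of summit pileup (x axis, tags), broad and narrower: the share of gene-end peaks that overlapped a W2 peak (left, y axis, %), and the share of starts inside the peak whose preceding 250 bases hold the NFY motif CCAAT (middle) or the SP/KLF motif GGGCGG (right), with exact binomial 95% intervals. The NFY share is higher at higher pileup and lower in broad than in narrower peaks in every class, from 22.5% and 34.0% at 16 to 24 tags to 81.1% and 91.3% at 60 to 92 tags.

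Among 17 lists of genes, those for splicing and RNA-binding proteins had the largest share with a broad peak at an end. It was 8 of 41 genes (19.5%), or 8 of the 34 with any M6 peak there, where the share over all protein-coding genes was 3.25% and 8.21%. The 5 of them with the highest −log10 q were Hnrnpa1, Hnrnpk, Ewsr1, Tra2a and Srsf2. Hnrnpa1, a nuclear RNA-binding protein and splicing regulator, shared its peak with Cbx5, a heterochromatin protein transcribed from the other strand (chromosome 15, 103239315 to 103240540). It was 1226 bp wide with 41 tags in M6 and held W2 peaks of 20 and 32 tags. Hnrnpk with Rmi1 had 36 tags in M6 against 25 tags in W2, and Ewsr1 with Rhbdd3 had 37 tags in M6 against 21 tags in W2. Srsf2, a serine- and arginine-rich splicing factor, shared its start region with Mfsd11 and had 28 tags in M6 and 18 and 19 tags at its W2 peaks. Tra2a, a splicing activator, had 26 tags in M6 and no W2 peak. Of the 8 genes, 5 had a start that shared the peak with a start of a neighbour on the other strand, the configuration described above. Starts on both strands lay in 14.2% of all broad peaks and in 21.2% of those with a start, and the difference was not tested.

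In the neuroendocrine list, broad peaks were at 3 of 38 genes (7.89%), against 3.25% of all protein-coding genes. Of the 38, 21 had some M6 peak at an end, and 14.3% of those had a broad one, against 8.21% over all genes. Syt1, the calcium sensor of synaptic vesicle release, had a peak of 1385 bp with 45 tags in M6 at its start (chromosome 10, 109010356 to 109011740). Celsr3, an adhesion receptor of developing neurons, had 806 bp and 49 tags in M6. Uchl1, a neuronal ubiquitin hydrolase used as a neuroendocrine marker, had 886 bp and 32 tags in M6 at its start. None of these 3 broad peaks held a W2 peak, which was also so for 233 of all 746 broad peaks. Even so, 1 of the 3 genes had a W2 peak within 1 kb of an end, outside its broad peak. The general neuroendocrine markers Chga, Syp and Insm1 were not among the genes with a broad peak. At the share of all genes, lists of up to 30 genes would hold about 1 gene with a broad peak or fewer, so a count of 0 is near that share. The luminal (30 genes), basal (18), epithelial-mesenchymal transition (16) and SOX factor (19) lists had none, though 12, 4, 6 and 5 of their genes had an M6 peak at an end. The lists for fibroblasts (12), smooth muscle (8), leukocytes (16) and endothelium (12) had none either, and 1 leukocyte gene was the only one of them with any M6 gene-end peak. The 30 housekeeping genes had no broad peak although 24 of them had an M6 peak at an end.

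The other 6 lists with a broad peak had it at 1 to 3 genes each, which was 3.28% to 7.69% of a list, against 3.25% of all protein-coding genes. Chromatin regulators had 3 of 47: Kdm4a, a histone demethylase (44 tags in M6, 31 tags in W2), Phf8, a further demethylase (21 tags in M6, no W2 peak), and Kmt2c, a histone methyltransferase (17 tags in M6, no W2 peak). Ribosomal proteins had 2 of 61, Rps19 (48 tags in M6, 26 tags in W2) and Rpl9 with Lias (19 tags in M6, 21 tags in W2). Ubiquitin and proteasome genes had 2 of 32, Cul4a with Pcid2 (43 tags in M6, 24 tags in W2) and Ube2d3 (35 tags in M6, 27 tags in W2). Chaperones had 2 of 26, Dnajb1, a partner of HSP70 (58 tags in M6, 35 tags in W2), and Hsph1, a nucleotide exchange factor of HSP70 (39 tags in M6, 31 and 25 tags in W2). Cell cycle genes had 1 of 28, Mcm4 of the replicative helicase, beside Prkdc (47 tags in M6, 26 tags in W2), and immediate early genes 1 of 30, Egr1 (44 tags in M6, 29 tags in W2). Apart from Rpl9, the W2 peaks of these genes, where present, were lower than the M6 peak.

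Broad peaks away from gene ends included some of the strongest. The 6 strongest inside genes were at Clec11a, a secreted growth factor of bone (75 tags in M6, 29 tags in W2), Sp2 (68 tags in M6, 39 tags in W2), Specc1 (53 tags in M6, 25 tags in W2), Tbc1d14, a regulator of autophagosome formation (61 tags in M6, 27 tags in W2), Cetn3 (56 tags in M6, 23 and 31 tags in W2) and Mesd, a chaperone of lipoprotein receptors (56 tags in M6, 37 tags in W2). All 6 had a W2 peak, and all but Clec11a held an annotated start of the named gene. Of the 6 strongest outside genes, 3 had no W2 peak (near Mgst1, Traf3ip2 and Tmem212). The others were near Lrrc4c (106 tags in M6, 119 tags in W2), near Ttll10, and near Zfp958, where M6 had 55 tags and W2 39 tags on chromosome 8 from 4677405 to 4678778.

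A few broad peaks stood on a raised local background. A background of at least 3 times the median of all M6 peaks, 10.56 tags, was found at 5 of the 746 (0.670%, 0.218 to 1.56%), and all 5 had a W2 peak. The peak over Rn18s-rs5 had 263 tags in M6 over a background of 119 tags and 267 tags in W2 over 119 tags, with W2 3545 bp wide. The peaks in Sfi1, a centrosomal protein gene, had 86 and 80 tags in M6 and 105 and 109 tags in W2. The peak near Lrrc4c (chromosome 2, 98666196 to 98667372) was 1177 bp wide in M6 and 1156 bp in W2, over backgrounds of 15.6 tags in M6 and 19.8 tags in W2. Hdgfl2 with Ubxn6 had 81 tags in M6 and 45 tags in W2. At the first 4 of these, W2 was as high as or higher than M6, unlike most broad peaks. Without the 5, the share at gene ends was 75.03% and the share with a W2 peak 68.6%.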

How the data were processed

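ATAC-seq peaks of 1 M6 and 1 W2 library of mouse prostate tumor cells were analysed as deposited, with no replicates and no pooling. The build was mm10 and the tools named were Bowtie2, deepTools, SAMtools 1.4 and Trim Galore 0.5.0, per the submitters' processing notes, with roles and peak caller not given in the sources used here. Both deposited lists hold, per peak, positions, a score (not used), a fold (a ratio of summit over local background of that library), and the −log10 of a p-value and of a q-value, all as the authors' caller gave them; the fold and −log10 values served only to describe and rank peaks within a list. The lists held 22594 M6 and 5765 W2 peaks, of which 24 M6 and 30 W2 peaks outside chromosomes 1 to 19, X and Y stayed out.

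The depth of sequencing is unknown. Pileup and background were recovered from the deposited fold, taken as (pileup + 1)/(background + 1), and the −log10 p-value under a Poisson distribution. A whole pileup was found for 100% of M6 and 100% of W2 peaks within 0.001, and the step was tested on simulated data. Peaks overlapping by at least 1 bp were paired. Genes came from a RefSeq table of GRCm38.p6, the assembly that mm10 names, which gives no strand or exons; starts, strands and promoters came from a RefSeq promoter table covering 17492 of the 21887 protein-coding genes. Of 465 genes in the lists, 1 was not matched. Python 3.11.15, numpy 2.4.6, scipy 1.17.1, pandas 2.3.3 and matplotlib 3.10.9 were used.

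The members, lists and motifs were chosen with earlier results of these data known. Named peaks were the 10 widest, the 8 strongest without a W2 peak, the 8 with the most W2 peaks, list genes (up to 5 per list by −log10 q), the 6 strongest inside and the 6 outside genes, those next to the minimum width, the 6 at the most gene ends, and the 6 with the largest and smallest pileup ratios. Further names (Rbm15, Sertad2 and Hdgfl2 with Ubxn6) complete small counts and were chosen after their values were seen. Alternatives covered the minimum width, window, overlap, thresholds on q and the comparison set.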

Additional observations from a re-analysis of the deposited data

Results flagged for a closer look

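The left-out stretches of chromosome 4 held 29 M6 peaks of at least 800 bp (15.6% of the 186 M6 peaks there), and no W2 peak of that width among 10. These 29 drew attention because they lie outside the peaks described above and enter only the alternative in which the stretches are kept. Their median pileup was 140 tags over a background of 51.3 tags, with a fold of 2.75, and 6 of them overlapped a W2 peak. With them, 775 broad M6 peaks were counted, 73.2% of them at a gene end and 67.0% with a W2 peak.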

How the results depend on the processing

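No paired analysis was possible because each time point had 1 library and no replicate numbers, and for the same reason no library could be left out. Of 56 alternative values, 33 kept their value within the counting error or, for counts, within 1.5 times; where values moved, the cause was not tested unless stated. With minimum widths of 700 and 1000 bp, which by construction keep more or fewer peaks, there were 1421 and 177 broad peaks with median widths of 806 and 1094 bp, at the ends of 1288 and 184 genes; 63.3% and 75.1% had a W2 peak and 4.86% and 16.9% had 2 or more. At 1000 bp, 78.5% lay at a gene end and 5 splicing and RNA-binding genes were left; at 700 bp the ratio of median pileups of broad over narrower peaks was 1.65 in place of 1.80, and it was 1.31 for the fold in place of the pileup. The gene-end share was 78.3% with a 2 kb window, 69.4% with annotated starts only and 78.0% with all kinds of genes. The share with a W2 peak was 62.6% when the M6 summit had to lie in it, 79.6% for broad peaks whose −log10 q reached 10, and 57.2% for W2 peaks whose −log10 q reached 5, where 5.09% had 2 or more. The difference to narrower peaks changed sign with the set: −13.1 percentage points against the strongest narrower peaks, 25.1 against peaks of 500 to 799 bp. Starts on both strands, in a window of 250 bp around the summit, fell to 6.70%. That window, the summit for location and leaving out raised backgrounds were chosen after seeing the data. Stretches with under 10 tags in M6 or 12 in W2 are outside these lists.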

Other observations

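Other motifs at starts in broad peaks were close to those in narrower ones. TGCGCA, the NRF1 motif, was before 14.6% of starts in broad peaks (11.9 to 17.7%), 12.2% in the strongest narrower peaks and 14.8% in narrower peaks, against 8.06% of all starts. TGANTCA, the AP-1 motif, was before 3.13% of starts in broad peaks, 3.10% in the strongest narrower and 3.58% in narrower peaks, against 6.13% of all starts. CAGCTG, an E-box bound by proneural factors among others, was before 9.54% of starts in broad peaks, 9.30% in the strongest narrower and 11.2% in narrower peaks, against 12.1% of all starts. Within broad peaks it was at 14.96% (9.25 to 22.4%) of starts without a W2 peak and 8.11% (5.83 to 10.9%) of those with one. These intervals overlap, and the first share rests on 19 of 127 starts. The split was not particular to broad peaks. In narrower peaks CAGCTG was at 401 of 3093 starts without a W2 peak (11.8 to 14.2%) and 230 of 2555 with one (7.92 to 10.2%). Another M6 peak lay within 5 kb of 6.30% of broad peaks (4.67 to 8.29%), 9.52% of the strongest narrower and 17.5% of narrower peaks.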
